A study of Mus musculus with 4 samples.

Results

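The MYC and MAX network genes, *Myc*, *Mycn*, *Max*, *Mxd1*, *Mxd3*, *Mxd4*, *Mxi1*, *Mnt*, *Mga* and *Mlx*, were followed in hair follicle stem cells (HFSCs) after 10 and after 48 passages. They were taken by gene symbol, and all 10 were found among the 24346 symbols listed in each library. HFSCs were sorted as CD49f- and CD34-positive cells from the dorsal skin of adult C3H/HeN mice and passaged in the serum-free medium M-CnT. The labels name no altered gene and no added agent for either group, and give 2 libraries of 10p-HFSCs (10 passages) and 2 of 48p-HFSCs (48 passages). The labels do not say whether the libraries of a group came from separate cultures or mice, so the p-values measure only the spread between these libraries, which may be technical.

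MYC proteins are transcription factors that bind DNA only as pairs with MAX, which they need to reach the sequence CACGTG, known as the E-box, and there they raise the transcription of genes for ribosome assembly, metabolism and growth. MAX also pairs with MXD1, MXD3, MXD4, MXI1, MNT and MGA, which bind the same sequence and lower transcription, so that activators and repressors share 1 partner. MLX is a relative of MAX that pairs with some of the same repressors and with the sugar-responsive factors MLXIP and MLXIPL. In the skin, MYC drives epidermal stem cells to divide and leave the stem cell niche, and *Mxd1* is known for its expression in differentiating keratinocytes.

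Several of these genes carry the E-box in their own promoters, and these stretches are shown because they are the sequence the network proteins read. In RefSeq promoters of GRCm38.p6, which reach from 250 bases before the start site to 50 after it, 9 of the members had an entry. *Myc* had none. CACGTG, which reads the same on both strands, was present for 4 of the 9 genes, or 44.4%, counting a gene if any of its windows held it. Counted in the same way, it was present for 12.2% of the 8457 genes tested below that had an entry. Among all 27025 symbols with an entry it was present for 8.09%. The 4 stretches are given 5′ to 3′ on the strand of the gene, with the E-box in capitals. They lie at chr5:34187904-34187949 for *Mxd4* (minus strand), chr11:74830781-74830826 for *Mnt* (plus strand), chr11:101087230-101087275 for *Mlx* (plus strand) and chr12:76962246-76962271 for *Max* (minus strand), and none overlaps an exon of the GENCODE M21 annotation. The first base of the E-box lay at -219, -123, -40 and -3 from the start site, in the same order.
Mxd4: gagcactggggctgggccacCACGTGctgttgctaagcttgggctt
Mnt: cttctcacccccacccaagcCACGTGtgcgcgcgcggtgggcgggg
Mlx: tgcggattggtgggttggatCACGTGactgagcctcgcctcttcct
Max: cccggcgcggtgagcccggtCACGTG
A match is a description of the sequence and does not show binding. The windows of *Mycn*, *Mxd1*, *Mxd3* and *Mga*, and the 3 windows of *Mxi1*, did not hold these letters.

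Values are FPKM as the authors deposited them, fragment counts scaled to the length of the gene and by a factor for each library. Levels of different genes are thus compared per length. The study's methods define FPKM by mapped fragments. With median-of-ratios scaling the median difference of all genes tested was -0.02 and 2200 were called, beside -0.03 and 2197 as deposited. Whether the deposited values were already scaled in such a way was not tested. Differences between groups are on the log2(FPKM + 1) scale, which understates the change of genes with low FPKM. Genes that reached an FPKM of 1 in 2 or more libraries, 11018 in number, were tested with limma. A call required a p-value below 0.05 after Benjamini-Hochberg adjustment over these genes and a log2 difference of 1 or more in size. For one gene alone, exact permutation of 2 libraries against 2 reaches a two-sided p of 0.33 at the lowest, and the calls therefore rest on variance borrowed from other genes. Relative depth was estimated from the commonest ratio among FPKM values under 0.3. The estimate was 46.7% to 82.9% of that of replicate 1 of 10p-HFSCs in the other 3 libraries, lowest in replicate 2 of 48p-HFSCs. It reads the factor of the library, which is the depth only if values were scaled to mapped fragments. The summed FPKM ranged from 581516 to 1414953, the highest in the same replicate 2 of 48p-HFSCs. Replicates also differed with transcript length. In the genes with the shortest transcripts, up to 1890 bases, replicate 2 lay above replicate 1 by a median of 0.24 in 10p-HFSCs and 0.47 in 48p-HFSCs on the log2 scale, and in those with the longest, from 4522 bases, by -0.22 and -0.29. The groups differed with length as well, with a median difference of 0.38 between 48p- and 10p-HFSCs in the shortest and of -0.32 in the longest. The labelled cells expressed the basal keratinocyte genes *Krt5*, *Krt14* and *Trp63* in every library, while *Cd34* had FPKM values of 0.0925 to 0.234 and *Lhx2* 0.0241 at most. Of the other follicle markers, *Krt15* had 136 and 82.6 in 10p- against 425 and 18.8 in 48p-HFSCs, and *Sox9* was at 8.31 or more in every library.

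Of the 10 members, 9 passed the filter on low FPKM, each in all 4 libraries, and *Mycn* did not. *Mxi1* was called higher and *Mxd4* lower in 48p-HFSCs, *Max* missed the limit on the size of the difference, with a mean FPKM 2.01 times as high in 10p- as in 48p-HFSCs, and *Myc* was not called. The 2 calls are 22.2% of the 9 tested members, beside 19.9% of all genes tested, so the share of members called was near the background. Without the limit on the difference, 3 of the 9 passed the adjusted p-value, beside 20.6% of all genes tested, and the same number had an unadjusted p-value under 0.05, beside 37.4%. The libraries of the groups did not overlap for 8 of the 9, beside 65.9% of all genes tested, with 5 higher in 48p-HFSCs, beside 31.7%, and 3 lower, beside 34.3%. The median log2 difference of the 9 members was 0.21, beside -0.03 for all genes tested. In RNA from bulk cultures, fewer cells expressing a gene and less RNA per cell cannot be told apart.

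**Figure D1:**
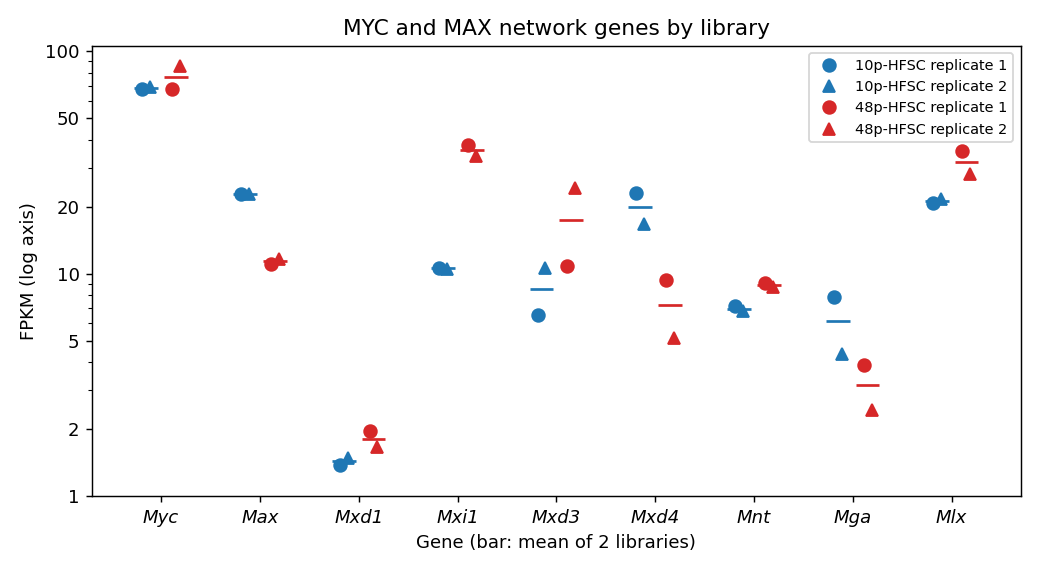
FPKM on a log axis for the 9 tested members in each library (circles, replicate 1; triangles, replicate 2; blue, 10p-HFSCs; red, 48p-HFSCs; bars, group means). *Max* and *Mxi1* replicates lie close together within each group, while *Mxd3*, *Mxd4* and *Mga* differ between replicates in both groups.

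*Myc*, on chromosome 15 of mm10 from 61985391 to 61990374, had FPKM values of 67.5 and 69.1 in 10p- against 68.0 and 86.0 in 48p-HFSCs. Replicate 2 of 48p-HFSCs was the highest, and replicate 1 lay between the 10p-HFSC libraries. The mean was 68.3 ± 1.12 (SD, n = 2) after 10 passages and 77 ± 12.7 (SD, n = 2) after 48, giving a log2 difference of 0.16 with a standard error of 0.27 (limma, adjusted p = 0.69). *Myc* was the most abundant member in every library, and its mean lay above that of 89.2% of the genes tested in 10p-HFSCs and 88.2% in 48p-HFSCs. The sign of its small difference was not stable, since it was -0.42 after rescaling to TPM, -0.09 after quantile normalization and -0.01 without replicate 2 of 48p-HFSCs. The 3 genes with the profile most like that of *Myc* over the 4 libraries were *Tmem135*, *Plekha3* and *Emd*, with a root mean square difference of centred log2 values of 0.009, 0.014 and 0.015. A flat profile of this kind was common, with 262 genes within 0.1 of it.

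*Mycn*, the relative of *Myc* known from embryonic and neural tissue, was listed at 0 in 3 libraries and at an FPKM of 0.0285 in replicate 2 of 10p-HFSCs. It was not tested. The third gene of the family, *Mycl*, is no member of the set but belongs beside it. Its FPKM was 3.04 and 2.86 in 10p-HFSCs, each 48p-HFSC library lists it at 0, and limma called it lower (-1.98 on the log2 scale, adjusted p = 0.0033). As *Mycl* passed the filter only through the 10p-HFSC libraries, it had to differ. In 10p-HFSCs its mean FPKM was 2.95, against 68.3 for *Myc*, so *Myc* was by far the most abundant of the family.

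*Max*, on chromosome 12 from 76937269 to 76962201, encodes the partner that MYC and its antagonists share. It had FPKM values of 22.8 and 22.9 in 10p- against 11.1 and 11.6 in 48p-HFSCs. Replicates differed little and both 48p-HFSC libraries lay below both 10p-HFSC libraries. The mean was 22.9 ± 0.126 (SD, n = 2) after 10 passages and 11.4 ± 0.354 (SD, n = 2) after 48, giving a log2 difference of -0.95 with a standard error of 0.24 (limma, adjusted p = 0.044). This difference passed the limit for the p-value but not the limit of 1 for the difference, so *Max* was not called. With a pseudocount of 0.1 the difference was -1.0 and *Max* was called (adjusted p = 0.046), and it was also called with length and GC content corrected for, at -1.13 (adjusted p = 0.015). Without replicate 1 or 2 of 10p-HFSCs its adjusted p was 0.41 and 0.36, at differences of -0.95 and -0.94.

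Of the 4 antagonists of the MXD family, *Mxi1* was called higher, *Mxd4* was called lower and *Mxd1* and *Mxd3* were not called. These proteins recruit the SIN3-HDAC corepressor to E-boxes and displace MYC from MAX. *Mxi1*, on chromosome 19 from 53310518 to 53375810, had FPKM values of 10.66 and 10.54 in 10p- against 37.8 and 34.0 in 48p-HFSCs, so that every 48p-HFSC value was more than 3 times every 10p-HFSC value. Its mean rose from 10.6 ± 0.0837 to 35.9 ± 2.68 (SD, n = 2 each), 3.38 times the FPKM and a log2 difference of 1.67 with a standard error of 0.24 (limma, adjusted p = 0.0078). When single libraries were omitted the difference stayed between 1.59 and 1.74. The call was lost without either 10p-HFSC library (adjusted p = 0.18 and 0.17), where the calls over all genes dropped from 2197 to 175 and 182, and after rescaling to TPM (1.13, adjusted p = 0.22). *Mxi1* is transcribed from several start sites, which one FPKM per gene does not separate.
The profiles most like that of *Mxi1* over the 4 libraries were those of *Evpl*, *Lce1b* and *Pde1b*, with root mean square differences of 0.017, 0.031 and 0.036. *Evpl* encodes envoplakin, a protein of the cornified envelope, and measured 2.57 and 2.55 in 10p- against 10.6 and 9.46 in 48p-HFSCs. *Lce1b*, a late cornified envelope gene, measured 2.25 and 2.12 in 48p-HFSCs and is listed at 0 for each 10p-HFSC library. *Pde1b* measured 0.0162 and 0 in 10p- against 2.23 and 2.13 in 48p-HFSCs. *Lce1b* and *Pde1b* passed the filter only through the 48p-HFSC libraries and had to differ. Their likeness to *Mxi1* holds on the log2(FPKM + 1) scale, which understates the change of genes with low FPKM. In all, 35 genes lay within 0.1 of *Mxi1*.

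*Mxd4*, on chromosome 5 from 34173883 to 34187720, had FPKM values of 23.1 and 16.7 in 10p- against 9.36 and 5.14 in 48p-HFSCs. Both 48p-HFSC libraries were below both 10p-HFSC libraries, and in each group replicate 2 was the lower one. Its mean fell from 19.9 ± 4.54 to 7.25 ± 2.98 (SD, n = 2 each), a log2 difference of -1.37 with a standard error of 0.36 (limma, adjusted p = 0.046). The direction held under all alternatives tried, with differences from -1.91 to -1.0, but the call was lost in 7 of them, among them the pseudocount of 0.1 (adjusted p = 0.052), no filter on low values (0.09) and the omission of replicate 2 of 48p-HFSCs (0.11).
*Mxd3*, which is known for expression in dividing cells in S phase, measured 6.51 and 10.6 in 10p- against 10.8 and 24.2 in 48p-HFSCs. The groups did not overlap, but replicate 1 of 48p-HFSCs exceeded replicate 2 of 10p-HFSCs by little, and replicate 2 was the higher one in each group. Its log2 difference of 0.88 with a standard error of 0.45 (limma, adjusted p = 0.2) was not called and became 0.37 after correction for length and GC content. Single libraries moved its size, which was 0.34 without replicate 2 and 1.43 without replicate 1 of 48p-HFSCs, and 0.57 without replicate 1 of 10p-HFSCs. The transcript of *Mxd3* is short, 1327 bases, and the gene overlaps *Prelid1* on the other strand, whose FPKM of 205 and 279 in 10p- against 292 and 614 in 48p-HFSCs followed the same order. The strand setting used for the FPKM values is not stated in the sources used here, and the part that reads of *Prelid1* have in the values of *Mxd3* was not tested.
*Mxd1* was the least abundant of the 9 tested members, with 1.38 and 1.49 in 10p- against 1.96 and 1.67 in 48p-HFSCs. Its log2 difference was 0.21 with a standard error of 0.24 (limma, adjusted p = 0.56).

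MNT and MGA are the larger antagonists, of which MNT is known as the broadly expressed one and MGA as a very large protein that also belongs to the Polycomb complex PRC1.6. *Mnt* had FPKM values of 7.13 and 6.81 in 10p- against 9.14 and 8.74 in 48p-HFSCs, a log2 difference of 0.32 with a standard error of 0.26 (limma, adjusted p = 0.41). The libraries of the groups did not overlap, but *Mnt* was not called, and after rescaling to TPM its difference was -0.20. *Mga*, on chromosome 2 from 119897228 to 119969581, measured 7.88 and 4.36 in 10p- against 3.88 and 2.43 in 48p-HFSCs, with replicate 2 the lower one in each group. Its log2 difference of -0.75 with a standard error of 0.37 (limma, adjusted p = 0.19) was not called. At 13931 bases its transcript is the longest of the set, and after correction for length and GC content the difference was -0.33 (adjusted p = 0.34).
*Mlx* measured 20.7 and 21.8 in 10p- against 35.5 and 28.2 in 48p-HFSCs, a log2 difference of 0.55 with a standard error of 0.25 (limma, adjusted p = 0.17), which was -0.01 after rescaling to TPM. *Mlx* overlaps *Psmc3ip* on the other strand, which measured 8.89 and 9.22 in 10p- against 11.0 and 16.2 in 48p-HFSCs. Of its own partners, *Mlxip* measured 10.0 and 9.0 in 10p- against 7.31 and 3.54 in 48p-HFSCs (limma adjusted p = 0.18), and *Mlxipl* was listed at 0 in all libraries.

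**Figure D2:**
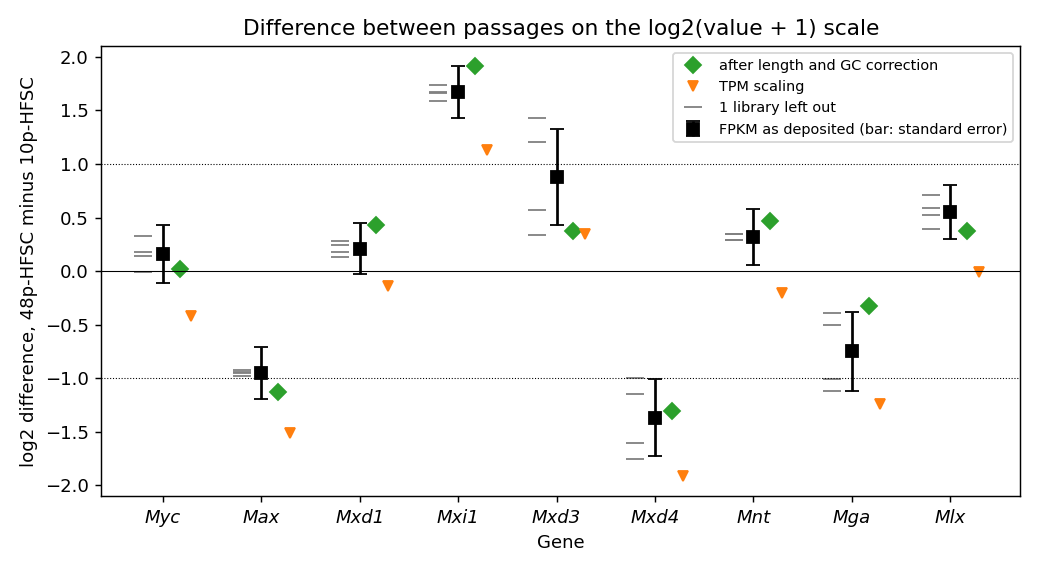
Log2 difference of each tested member between 48p- and 10p-HFSCs (squares with standard errors, FPKM as deposited; grey dashes, 1 library left out; diamonds, after length and GC correction; triangles, after rescaling to TPM; dotted lines, the limit of 1). *Mxi1* and *Mxd3* stay above 0 and *Max*, *Mxd4* and *Mga* stay below 0 at every setting drawn. Of these, only *Mxi1* and *Mxd4* were called on FPKM as deposited. Rescaling to TPM moved the median of all genes tested to -0.56 and the members down with it.

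The scaling of whole libraries cancels when members are compared within a library, while the difference with transcript length does not. The FPKM of *Myc* per FPKM of *Max* measured 2.97 and 3.01 in 10p- against 6.12 and 7.40 in 48p-HFSCs. Both ratios of 48p-HFSCs were above both of 10p-HFSCs. Among the summed FPKM of the 8 partners of MAX, *Myc* made up 54.4% and 57.7% in 10p- against 48.3% and 53.0% in 48p-HFSCs. The share of *Mxi1* was 8.58% and 8.80% in 10p- against 26.8% and 20.9% in 48p-HFSCs. The smaller share of the pair in 48p-HFSCs, that of *Mxd4*, was 18.6% and 14.0% in 10p- against 6.64% and 3.17% in 48p-HFSCs. In 10p-HFSCs *Mxd4* was thus the most abundant antagonist in both libraries, and in 48p-HFSCs *Mxi1* was. The FPKM of *Mxi1* per FPKM of *Mxd4* measured 0.461 and 0.631 in 10p- against 4.04 and 6.61 in 48p-HFSCs. The 4 MXD genes together made up 33.5% and 32.9% of the sum in 10p- against 42.5% and 40.1% in 48p-HFSCs.
Per 100 FPKM of all its partners, *Max* reached 18.3 and 19.2 FPKM in 10p- against 7.89 and 7.16 in 48p-HFSCs. These are ratios of mRNA levels over members chosen for their roles, they carry no test, and they say nothing of protein levels.

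**Figure D3:**
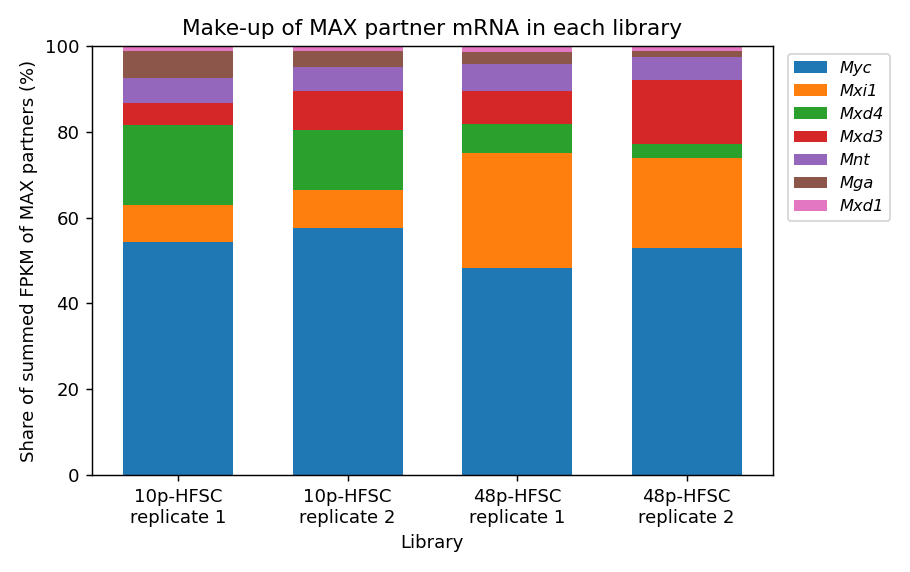
Share of each MAX partner in the summed FPKM of the partners, stacked to 100% for each library (*Mycn*, under 0.1% in each library, is not drawn). *Myc* takes 48.3% to 57.7% of the sum in the 4 libraries, the *Mxi1* share is larger and the *Mxd4* share smaller in both 48p-HFSC libraries.

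In the tested members the levels ordered as follows in 10p-HFSCs by mean FPKM: *Myc*, *Max*, *Mlx*, *Mxd4*, *Mxi1*, *Mxd3*, *Mnt*, *Mga* and *Mxd1*. The neighbours *Mlx* and *Mxd4*, *Mxi1* and *Mxd3*, *Mxd3* and *Mnt*, and *Mnt* and *Mga* overlapped between libraries of 10p-HFSCs. In 48p-HFSCs the order was *Myc*, *Mxi1*, *Mlx*, *Mxd3*, *Max*, *Mnt*, *Mxd4*, *Mga* and *Mxd1*. There *Mxi1* and *Mlx*, *Mxd3* and *Max*, and *Mnt* and *Mxd4* overlapped. *Mxi1* thus moved from the fifth to the second place and *Mxd4* from the fourth to the seventh.

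Listed genes that MYC is known to raise were lower in 48p-HFSCs more often than higher. Of a list of 55 such genes, most of them for ribosome assembly, all 55 were tested, 9 were called lower and 1 was called higher. This list and those that follow were chosen with earlier results of these data known, and their shares carry no test. The genes called lower were 16.4% of the list, beside 9.15% of all genes tested, and those called higher were 1.82%, beside 10.8%. In either direction, 17 of the 55 had an unadjusted p-value under 0.05 by limma, 14 lower and 3 higher, beside 37.4% of all genes tested. The median log2 difference of the list was -0.29, beside -0.03 for all genes tested, and 39 of the 55 lay below the median of all genes. Relative to the median of all genes, the list's median stayed below 0 under every alternative, from -0.46 to -0.14. *Tfrc*, the transferrin receptor for iron uptake, fell from an FPKM of 209 and 189 to 19.0 and 34.9, a log2 difference of -2.90 with a standard error of 0.35 (limma, adjusted p = 0.0043). *Dkc1*, whose product modifies ribosomal RNA and is part of telomerase, fell from 43.9 and 35.4 to 11.5 and 7.89 (-1.94, adjusted p = 0.0088). *Utp20*, of the small-subunit processome, fell from 27.6 and 15.4 to 7.88 and 7.38 (-1.33, adjusted p = 0.045). The other 6, named after their values were seen, were *Nolc1*, *Nop56*, *Nop58*, *Wdr43*, *Ddx21* and *Nip7*, all for nucleolar proteins or ribosome assembly, with differences from -1.32 to -1.01. *Odc1*, the first enzyme of polyamine synthesis and a textbook target of MYC, went the other way, from 41.9 and 39.4 to 97.5 and 194 (1.74, adjusted p = 0.029). The number called lower was between 0 by limma, without either 10p-HFSC library, and 13, without replicate 1 of 48p-HFSCs.
The E-box was found in the promoters of 16 of the 48 listed genes with an entry, 33.3%. Among the 10 called genes, only *Wdr43* and *Utp20* held it in the windows searched, both after the start site.

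Of 8 genes that MYC is known to repress, 6 were tested and 3 were called higher in 48p-HFSCs, beside 10.8% of all genes tested. *Cdkn2b*, which encodes the cell cycle inhibitor p15, rose from 26.0 and 33.4 to 110 and 119 (log2 difference 1.92, limma adjusted p = 0.0065). *Clu*, which encodes clusterin, rose from 7.28 and 6.93 to 67.1 and 110 (3.42, adjusted p = 0.0017). *Gadd45a*, a stress gene that p53 also activates, rose from 9.09 and 9.35 to 51.7 and 257 (3.51, adjusted p = 0.023), with a wide gap between the 48p-HFSC replicates. The other 3 were not called: *Cdkn1a*, which encodes p21, had 91.4 and 110 in 10p- against 186 and 265 in 48p-HFSCs (adjusted p = 0.059), *Cdkn1b* had a difference of -0.77 and *Ndrg1* of 0.68, these 3 being named after their values were seen. Relative to all genes the median of the 6 was 1.57, and it ranged from 1.22 to 1.71 over the alternatives.

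The machinery around the network was read against the 9.15% of all genes tested that were called lower. Among 12 cofactors of MYC, limma called 2 lower, 16.7%, and 0 higher. An unadjusted p-value under 0.05 was reached by 3 of the 12, beside 37.4% of all genes tested. *Ruvbl1*, an ATPase of the TIP60 and INO80 complexes, fell from 68.9 and 53.4 to 15.1 and 23.9 (-1.62, adjusted p = 0.02), and *Hcfc1*, the host cell factor that binds MYC, from 32.6 and 22.7 to 11.9 and 8.62 (-1.34, adjusted p = 0.032). Among 12 genes that control the turnover of MYC protein, limma called 0, and 1 had an unadjusted p-value under 0.05, beside the same 37.4%. By the mean over all 4 libraries the highest expressed was *Stub1*, a ubiquitin ligase, though not in every library, with 39.2 and 54.8 in 10p- against 50.9 and 118 in 48p-HFSCs. Of the 17 genes of the SIN3-HDAC corepressor, through which MXD proteins and MNT act, 1 was called lower, 5.88%, namely *Ing1*, from 27.8 and 34.0 to 11.4 and 12.4 (-1.30, adjusted p = 0.02), and the median was -0.12. Its scaffold gene *Sin3a*, named after its values were seen, had a log2 difference of -0.31 between FPKM means of 15.2 in 10p- and 11.9 in 48p-HFSCs.
Of 11 genes whose products join MGA in PRC1.6, 1 was called lower, 9.09%, namely *Tfdp1*, which encodes the partner DP1 of E2F factors. It fell from 136 and 124 to 28.7 and 13.2 (-2.67, standard error 0.39, limma adjusted p = 0.0081). *Pcgf6*, the subunit that defines the complex, named after its values were seen, measured 40.3 and 48.1 in 10p- against 24.2 and 14.4 in 48p-HFSCs. It was not called, just missing the limit for the p-value (-1.19, limma adjusted p = 0.051). The median log2 difference of the 11 genes was -0.13, with 3 above 0 and 8 below. Among 10 further genes of related E-box factors, *Mycl* and *Tfeb* were called lower of 6 tested, 33.3%. Both passed the filter only through the 10p-HFSC libraries and had to be lower, so this share is no result about the list. *Tfeb*, a regulator of lysosomal genes, measured 2.62 and 3.88 in 10p- against 0.0854 and 0 in 48p-HFSCs (-2.01, limma adjusted p = 0.0051).

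**Figure D4:**
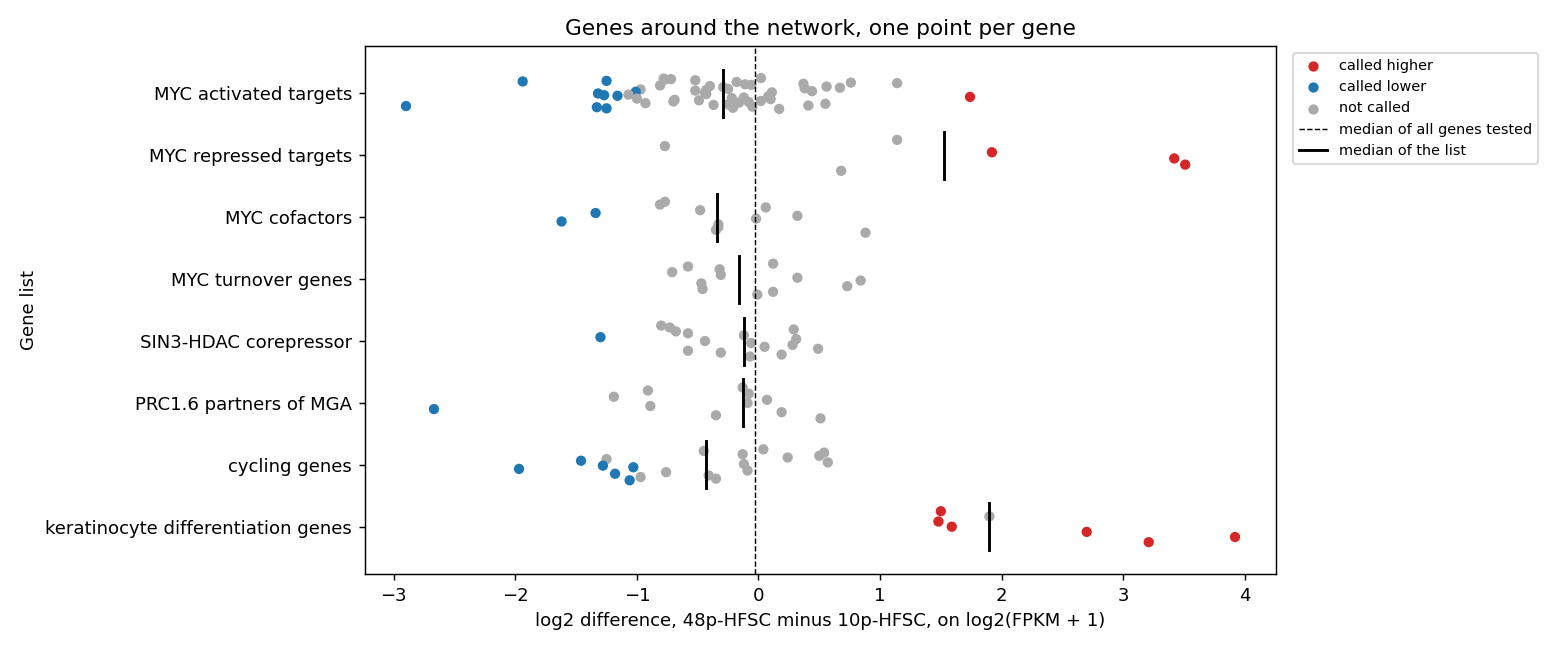
Log2 difference on the log2(FPKM + 1) scale for each tested gene of 8 lists around the network (red, called higher; blue, called lower; grey, not called; solid bars, list medians; dashed line, median of all genes tested). The points of the MYC activated targets reach from -2.90 (*Tfrc*) to 1.74 (*Odc1*) with their median at -0.29.

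Genes of other programs moved with the same contrast, and their part in the results of the network was not tested. Of 20 genes of cycling cells, limma called 6 lower and 0 higher, with 9 at an unadjusted p-value under 0.05, all lower. In all, 15 of the 20 had a difference below 0 and 5 above. Among those above 0, named after their values were seen, were *Cdk1* (0.57), *Ccna2* (0.54) and *Ccnb2* (0.50), none of them called. The 6 are 30.0% of the list, beside 9.15% of all genes tested, and the 9 stand beside 37.4% of all genes at that unadjusted limit. *Mcm5* fell from an FPKM of 34.1 and 29.1 to 7.06 and 7.52 (-1.97, adjusted p = 0.0051), *Cdc6* from 5.48 and 4.29 to 1.28 and 0.991 and *Mcm2* from 41.3 and 35.4 to 13.1 and 17.6, all for the licensing of DNA replication. Relative to all genes the median of this list was -0.40, but only -0.05 without replicate 1 of 48p-HFSCs, when 3 genes were called higher and 6 lower. Of 12 keratinocyte differentiation genes listed in the libraries, 7 were tested and 6 were called higher, beside 10.8% of all genes tested, among them *Sprr1b*, from 15.1 and 12.8 to 208 and 242 (3.92, limma adjusted p = 0.00092), *Tgm1*, from 0.0369 and 0.0268 to 6.57 and 11.1, and *Sprr1a*, from 0.998 and 0.813 to 15.9 and 8.01. *Tgm1* and *Sprr1a* passed the filter only through the 48p-HFSC libraries and had to differ. *Krt1*, *Krt10* and *Lor*, the defining genes of the spinous and granular layers, were listed at 0 in every library. The activated, repressed, cofactor, SIN3-HDAC, PRC1.6, cycling and differentiation lists held 128 tested entries, *Wdr5* standing in both the cofactor and the PRC1.6 list. With all libraries, limma called 10 of these entries higher and 19 lower. Without replicate 1 or 2 of 10p-HFSCs these calls did not hold.
Markers of other cell types were checked as whole lists. The summed FPKM of 9 fibroblast markers measured 353 and 388 in 10p- against 2.53 and 3.32 in 48p-HFSCs, nearly all of it from *Vim* and *Col1a2*, which were both called lower (*Col1a2* passed the filter only through the 10p-HFSC libraries and had to differ), while *Dcn*, *Lum* and *Thy1* were listed at 0 in all libraries. The sum of 5 leukocyte markers measured 0.641 and 0.694 in 10p- against 64.3 and 104 in 48p-HFSCs, nearly all from *Cd74*, and *Cd3e* and *Tyrobp* were listed at 0. Of these 5, *Cd74* and *Lyz2* were tested and both were called higher, but both passed the filter only through the 48p-HFSC libraries and had to differ. The 5 melanocyte markers summed to at most 11.0, most of it *Tyr*, and the 4 endothelial markers to at most 2.44, most of it *Pecam1*, with 1 gene tested and 0 called by limma in each list and 1 at an unadjusted p-value under 0.05. *Tyr*, the melanocyte marker tested, passed the filter only through the 48p-HFSC libraries and had to differ. Of 8 follicle stem cell markers 6 were tested. *Itga6*, the gene of CD49f, was called higher, from a mean FPKM of 26.1 ± 7.52 to 90 ± 15.5 (SD, n = 2) (1.77, limma adjusted p = 0.014), and *Sox9* lower, from 45.6 and 44.2 to 20.2 and 8.31 (-1.71, adjusted p = 0.039).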

How the data were processed

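RNA of 2 libraries of 10p-HFSCs and 2 of 48p-HFSCs was prepared with a stranded mRNA kit and sequenced from one end. The submitters' processing notes name TopHat2 2.1.1, Bowtie2 2.2.8, SAMtools 0.1.18, Cuffdiff 2.2.1 and mm10, and the study's methods name Cufflinks. The authors deposited 1 FPKM value for each gene symbol. The annotation and strand setting are not given in the sources used here. FPKM values hold no read totals, so the absolute depth is unknown and no count test was run.

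Libraries were grouped by title. Values of log2(FPKM + 1) were fitted in limma 3.58.1 (R 4.3.3) with a variance trend and without a block. Alternatives were a pseudocount of 0.1, no filter, other scalings (TPM, median of ratios, quantile), a constant variance prior, correction for length and GC content, the replicate block and the omission of single libraries. The fit was tested on simulated data. Changes of 3 or 1.5 on the log2 scale were put into 200 of 11018 genes. The fit recovered 98.5% of the larger changes and 63.6% of the smaller ones, and 7.21% of its calls were false. In these data 19.9% of genes were called, a larger share than was changed in the simulation, so the share of false calls need not carry over. The simulated libraries varied independently, while deviations of same-numbered libraries in these data had a correlation of 0.408. The members and the 14 gene lists were chosen with earlier results of these data known. All members were named, and of each list up to 3 called genes per direction with the largest differences, or else the highest expressed gene. Transcript lengths and GC content, found for 96.3% of genes tested, came from GENCODE M21 on GRCm38, the same assembly as mm10. Promoters came from RefSeq tables of GRCm38.p6.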

Additional observations from a re-analysis of the deposited data

How the results depend on the processing

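Of 117 differences of members computed under the alternatives, 98 kept their direction and their side of the call, 10 lost a call, 3 gained one and 6 changed sign. The changes of sign were those of *Myc* (-0.42 after rescaling to TPM, -0.09 after quantile normalization, -0.01 without replicate 2 of 48p-HFSCs, where the others left out gave up to 0.33), *Mxd1* (-0.14), *Mnt* (-0.20) and *Mlx* (-0.01), the last 3 after rescaling to TPM, and none of these genes was called at any setting. Rescaling to TPM moved the median of all genes tested to -0.56. Relative to it, *Mxi1* was at 1.68, *Max* at -0.95 and *Mxd4* at -1.35, but limma called 0 members higher and 0 lower, with 2 at an unadjusted p-value under 0.05. The number of members called lower was 0 with no filter and with a constant variance prior, where *Mxd4* was lost, and 2 (*Max* and *Mxd4*) after length and GC correction, with or without the replicate block. When single libraries were left out, 0 to 1 members were called higher and 0 to 1 lower, and of the genes of the other lists 1 to 23 were called higher and 3 to 34 lower, against 13 and 24 with all libraries. Calls over all genes numbered 175 and 182 without replicates 1 and 2 of 10p-HFSCs. The lone library left in a group was assumed to vary like the others. With no filter, 8 and 15 genes of these lists were called. The cause of these changes was not tested.
The replicate numbers share only a number in the labels. Deviations of same-numbered libraries had a correlation of 0.408 across genes. With the replicate block, 1 member was called higher and 1 lower, as without it, the adjusted p of *Mxd3* was 0.024 at a difference under the limit, and the calls over all genes went from 2197 to 3110. Of the list genes 17 were called higher and 28 lower, with repressed targets going from 3 to 4 higher, PRC1.6 partners from 1 to 2 lower, cycling genes from 6 to 7 lower, differentiation genes from 6 to 7 higher, activated targets to 2 higher and 10 lower, and *Tyr* and *Pecam1* gaining a call. *Tyr* had to differ, since it passed the filter only through the 48p-HFSC libraries. The shares of *Myc*, *Mxi1* and *Mxd4* among MAX partners kept their direction without *Mga*, with *Mlx* added and with each library left out. The estimate of depth was lowest in replicate 2 of 48p-HFSCs, but it depends on how the libraries were scaled. A lower depth would limit values near 0.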
